A study of Mus musculus with 23 samples.

Results

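The 10 genes described here are imprinted growth genes of the mouse: H19, Igf2, Dlk1, Meg3, Cdkn1c, Mest, Peg3, Grb10, Plagl1 and Ndn. They were taken by gene name from a count table of 54446 genes, and 9 of them (Igf2 is the exception) were followed by the same Ensembl identifiers in a second table of 15624 genes. They were selected on measured values: H19 was abundant in these muscles and higher after denervation, and the other 9 join it as imprinted growth genes. The values of denervated against innervated muscle are therefore given for all 10 as a description, with no test.

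RNA was sequenced from skeletal muscle, with no muscle or muscle group named, of innervated WT mice (3 libraries), WT mice at 10 d after denervation (3 libraries) and denervated mice labelled PAX4 KO at 10 d (3 libraries); these 9 libraries make up the count table. The second table holds 8 libraries, all from muscle at 10 d after denervation: WT muscle labelled con (libraries 2 and 3), muscle labelled NRF1 KD, whose genotype label reads NRFkd (3 libraries), and muscle labelled NRF1-PAX4 double KD (3 libraries). Denervation cuts the motor nerve and leads to atrophy of the muscle it supplied. All KO and KD muscle was denervated, so no comparison shows either factor in innervated muscle. The labels do not give the age or sex of the mice, how the genes were removed or lowered, in which cells, or whether libraries came from separate animals, so p-values measure only the spread between these libraries.

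Genomic imprinting is the expression of a gene from only the maternal or only the paternal copy, set by DNA methylation that differs between egg and sperm. Imprinted genes lie in clusters that share a control region, and many of them raise or restrain growth before birth. H19 and Igf2 form the best known cluster: the control region between them blocks Igf2 on the maternal copy, where H19 is transcribed, and is methylated on the paternal copy, where Igf2 is transcribed. Most of these genes are turned down after birth, and skeletal muscle is known for keeping H19 on. Read counts per gene do not separate the parental copies.

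On the GRCm38 build, 5 of the 10 genes lie on chromosome 7: H19 (chr7:142575529-142578143, minus strand), Igf2 (chr7:142650766-142666816, minus), Cdkn1c (chr7:143458339-143461050, minus), Peg3 (chr7:6703892-6730431, minus) and Ndn (chr7:62346569-62350262, plus). Dlk1 (chr12:109452823-109463336, plus) and Meg3 (chr12:109541001-109571726, plus) are neighbours in the Dlk1-Dio3 cluster. The others are Mest (chr6:30723547-30748465, plus), Grb10 (chr11:11930508-12038683, minus) and Plagl1 (chr10:13060504-13131694, plus). H19 and Meg3 are annotated as long intergenic non-coding RNAs and the other 8 as protein-coding. Mest overlaps Copg2 on the opposite strand, and Igf2 overlaps its antisense transcript Igf2os. Since the strandedness of the counting is not given in the sources used here, reads from each gene and its partner cannot be told apart. Igf2 also overlaps Gm49394, annotated as protein-coding on the same strand, which had 0 counts over the 9 libraries of the count table. How reads shared by overlapping genes were counted is not given, so the counts of Igf2 may lack such reads.

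H19 carries a microRNA, miR-675, and its sequence is shown because it lies inside the most abundant transcript described here. The Mir675 hairpin sits at chr7:142577064-142577147 on the minus strand (RefSeq, GRCm38.p6), wholly within an annotated exon of H19. In the hairpin the capitals mark both mature arms, and in each mature arm they mark the seed, bases 2 to 8, which pairs with target mRNAs.
Mir675 hairpin: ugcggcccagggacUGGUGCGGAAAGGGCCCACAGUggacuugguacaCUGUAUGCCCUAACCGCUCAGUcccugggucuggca
mmu-miR-675-5p: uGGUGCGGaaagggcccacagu
mmu-miR-675-3p: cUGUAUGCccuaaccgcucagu
The 2 arms have different seeds. Mir675 as a gene of its own had 0 counts in all 9 libraries of the count table, where 3 counts correspond to 0.0701 to 0.138 CPM. Reads across the hairpin also lie in an exon of H19 on the same strand, and how such reads were counted is not given. The 0 therefore does not show that this sequence was absent. The libraries were made from mRNA, so they do not measure the mature microRNA.

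Total counts ranged from 21716216 to 42821396 in the count table, and the reads recovered from the second table ranged from 23740769 to 30165765. All 10 skeletal muscle fibre markers were present in every group. The genes named in the labels did not check them: Pax4 had 0 counts in all 9 libraries, WT ones included, and Nrf1 was not lower in muscle labelled NRF1 KD (499, 476 and 524 normalised counts against 488 and 444 in WT con; log2 fold change 0.10 ± 0.12 SE, limma adjusted p = 0.618). The groups are therefore called by their labels. Innervated library 2 stood apart from the other 2 innervated libraries: Chrng, the fetal subunit of the muscle acetylcholine receptor, was at 16.0 CPM there and at 0.197 and 0.105 CPM in libraries 1 and 3. Denervated WT library 1 had a summed level of 10 macrophage markers of 866 CPM, against 426 and 431 CPM in the other 2. The values of denervated against innervated muscle are also given without these 2 libraries.

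H19 and Peg3 were the members with much higher levels in denervated muscle, Cdkn1c and Dlk1 were lower, and the other 6 genes overlapped between the groups. H19 was at 178, 929 and 199 CPM (counts scaled to a common library size with TMM factors) in innervated libraries 1 to 3 and at 3005, 2918 and 4383 CPM in denervated WT libraries 1 to 3. Every denervated library was above every innervated one, and innervated library 2 was the highest of its group. The mean was 3435 ± 822 CPM (SD, n = 3) in denervated WT muscle and 436 ± 428 CPM (SD, n = 3) in innervated muscle, a fitted difference of 2.98 ± 0.57 (SE) on the log2 scale. Without innervated library 2 the difference was 4.19, and without that library and denervated WT library 1 it was 4.28.

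Among 16140 genes compared per kilobase of exon, H19 held rank 193 in innervated muscle, with 177 ± 174 CPM per kilobase (SD, n = 3), and rank 32 in denervated WT muscle, with 1396 ± 334. It took 0.0147% to 0.0792% of all counts of an innervated library and 0.285% to 0.456% of a denervated one.

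Peg3, which encodes a zinc finger protein and is expressed from the paternal copy, was at 27.9, 60.2 and 43.7 CPM in innervated muscle and at 200, 261 and 222 CPM in denervated WT muscle. The 2 groups were far apart, with the lowest denervated library over 3 times the highest innervated one. The fitted difference was 2.37 ± 0.27 (SE) on the log2 scale, 5.17-fold, and it was 2.75 without the 2 libraries that stood apart. In innervated muscle, too, library 2 had the highest Peg3 level.

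Cdkn1c encodes p57, an inhibitor of cyclin-dependent kinases that stops the cell cycle and is expressed from the maternal copy. It was at 22.5, 14.5 and 20.1 CPM in innervated muscle and at 7.92, 9.43 and 11.0 CPM in denervated WT muscle. All 3 denervated libraries lay below the innervated ones, with a log2 fold change of -1.01 ± 0.30 (SE), or -1.05 without the 2 libraries that stood apart.

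Dlk1, a transmembrane protein with EGF-like repeats known for restraining fat cell formation, was at the limit of what these libraries show. It had 37, 35 and 31 counts in innervated libraries (1.82, 0.959 and 1.08 CPM) and 28, 16 and 14 counts in denervated WT libraries (0.674, 0.448 and 0.366 CPM). The groups did not overlap, and the fitted log2 fold change was -1.34 ± 0.46 (SE), or -1.81 without the 2 libraries that stood apart. Beside these, 23.9% of the 16146 genes tested were higher and 22.6% were lower with no overlap between the groups, and edgeR called 32.3% of them at an adjusted p under 0.05, and nothing is read from the 2 members that were higher and the 2 that were lower without overlap.

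Igf2, the fetal growth factor of the H19 cluster, was low in every library, with 9, 42 and 34 counts in innervated and 54, 40 and 63 counts in denervated WT muscle. These are 0.443, 1.15 and 1.19 CPM and 1.30, 1.12 and 1.65 CPM, which overlapped between the groups (log2 fold change 0.52 ± 0.35 SE, 0.73 without the 2 libraries that stood apart). Per kilobase of exon the mean H19 level in denervated WT muscle was 1396 CPM and that of Igf2 0.237 CPM, although the genes share their control region. Igf2os, the transcript antisense to Igf2, was at 0.0985, 0.110 and 0.139 CPM in innervated and 0.265, 0.140 and 0.183 CPM in denervated WT muscle, and did not pass the test (edgeR adjusted p = 0.314).

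Meg3, the maternally expressed long non-coding RNA beside Dlk1, was at 14.7, 13.5 and 18.5 CPM in innervated and 14.2, 9.37 and 10.7 CPM in denervated WT muscle. The groups overlapped by 1 library, and the log2 fold change was -0.45 ± 0.23 (SE). Without the 2 libraries that stood apart it was -0.72.

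Grb10 encodes an adaptor protein that binds the insulin and IGF1 receptors and restrains their signal. It was at 60.4, 40.6 and 66.7 CPM in innervated and 57.7, 45.0 and 58.3 CPM in denervated WT muscle, a log2 fold change of -0.06 ± 0.20 (SE), or -0.30 without the 2 libraries that stood apart. Plagl1, a zinc finger transcription factor, was at 1.48, 2.06 and 1.29 CPM in innervated and 2.99, 1.45 and 1.49 CPM in denervated WT muscle (0.29 ± 0.39 SE, 0.10 without them). Both genes overlapped between the groups, with denervated library 1 above all innervated libraries for Plagl1.

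Ndn, which encodes necdin of the MAGE protein family, was at 7.93, 10.2 and 7.43 CPM in innervated and 8.19, 8.45 and 9.84 CPM in denervated WT muscle (log2 fold change 0.05 ± 0.16 SE, 0.26 without the 2 libraries that stood apart). Mest, an enzyme of the alpha/beta-hydrolase fold, was at 3.94, 5.10 and 4.04 CPM and at 6.21, 3.61 and 4.06 CPM (0.08 ± 0.30 SE, -0.05 without them). Neither gene separated the groups. Over the 10 genes the median log2 fold change was 0.07, against 0.02 over all genes tested.

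**Figure D1:**
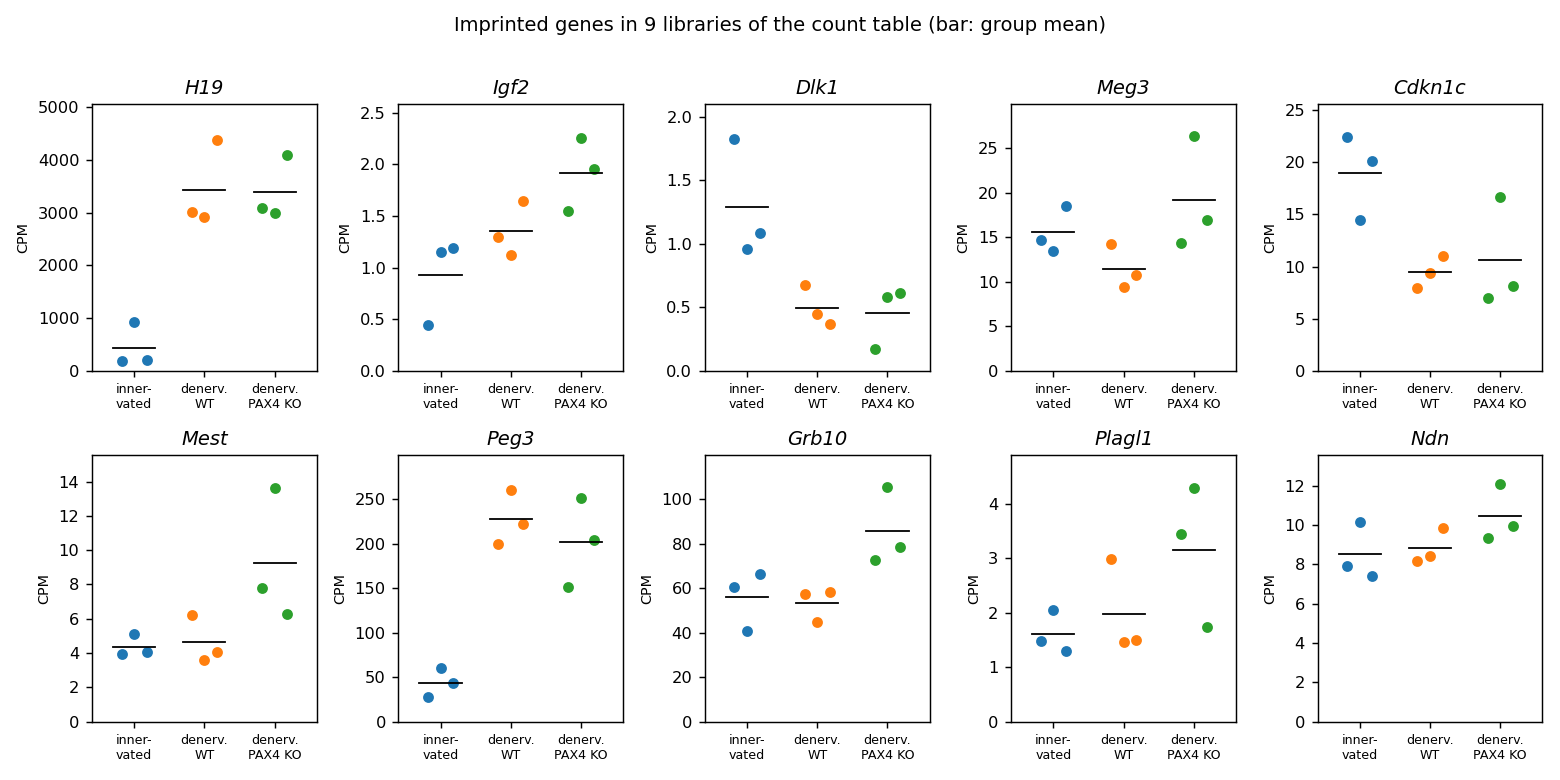
CPM (y axis, from 0, a scale of its own for each gene) of the 10 imprinted genes in the 9 libraries of the count table; each point is a library, in order of library number within its group, and each bar is the mean of 3 libraries. H19 and Peg3 lie high in all 6 denervated libraries, with H19 between 2918 and 4383 CPM, while Cdkn1c and Dlk1 are higher in innervated than in denervated WT muscle.

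Per kilobase of exon, the order of the genes in denervated WT muscle was H19 (1396 CPM per kilobase), Peg3 (17.1), Grb10 (5.90), Cdkn1c (4.63), Ndn (2.39), Mest (1.17), Meg3 (0.632), Plagl1 (0.253), Igf2 (0.237) and Dlk1 (0.0877). Plagl1 and Igf2, with SDs of 0.112 and 0.0471, did not differ beyond their spread. Neither did Grb10 and Cdkn1c, with SDs of 0.825 and 0.753. In innervated muscle H19 also came first (177), but Cdkn1c came next (9.32 ± 2.01 SD), ahead of Grb10 (6.15 ± 1.498 SD) and Peg3 (3.30 ± 1.21 SD).

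Neighbours within a cluster did not all move in 1 direction. These neighbours were chosen for their position, after values were seen. In the Peg3 cluster, Zim1 (log2 fold change 1.72 ± 0.28 SE, edgeR adjusted p = 0.00154) and Usp29 (1.16 ± 0.26 SE, adjusted p = 0.00696), genes on either side of Peg3, both rose with denervation. In the Dlk1-Dio3 cluster, Dio3, the deiodinase that inactivates thyroid hormone, rose too (2.66 ± 0.59 SE, edgeR adjusted p = 0.00741). It was at 0.493, 0.521 and 0.0697 CPM in innervated and 3.03, 1.65 and 2.17 CPM in denervated WT muscle.

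The non-coding RNAs of the same cluster, which are known to be transcribed from the maternal copy downstream of Meg3, went the other way. Rian fell by 0.75 on the log2 scale (SE 0.23, edgeR adjusted p = 0.0327), from 23.1, 17.3 and 23.6 CPM to 16.4, 10.2 and 11.4 CPM, and Mirg had a log2 fold change of -0.88 ± 0.39 (SE) that did not pass the test (adjusted p = 0.110). Beside Cdkn1c, none of the 7 neighbours tested passed the test; Tspan32 came closest (1.45 ± 0.52 SE, adjusted p = 0.0573). Beside Grb10, which overlapped between the groups, Ddc (1.78 ± 0.50 SE, adjusted p = 0.0208) and Cobl (0.49 ± 0.14 SE, adjusted p = 0.0206) rose. Copg2, which overlaps Mest, rose from 20.0, 22.3 and 19.5 CPM to 42.9, 45.8 and 37.5 CPM (1.03 ± 0.11 SE, adjusted p = 0.000212), and Snrpn, in the cluster of Ndn, fell by 1.20 on the log2 scale (SE 0.14, adjusted p = 0.000303).

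**Figure D2:**
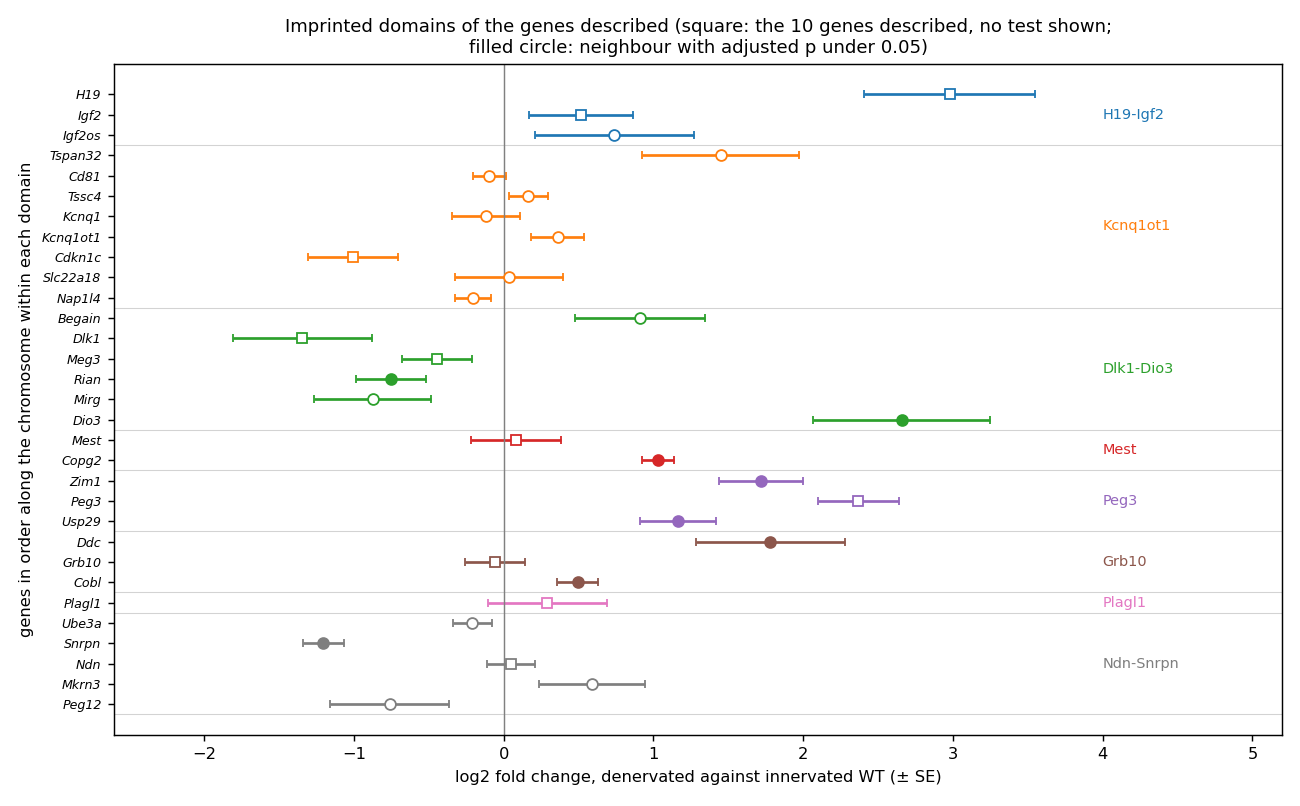
Log2 fold change of denervated against innervated WT muscle (x axis, bars are SE) for the 10 imprinted genes (squares, no test shown) and the tested genes of their clusters (circles, filled where the edgeR adjusted p was under 0.05), in chromosome order within each cluster (y axis). Peg3 and both its neighbours lie to the right of 0, whereas the Dlk1-Dio3 cluster holds genes on both sides, from Dlk1 at -1.34 to Dio3 at 2.66.

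Of the 44 other imprinted genes tested, 12 rose and 7 fell with denervation, and 25 did not pass the test (edgeR, adjusted over all genes). Whether each gene on this list is imprinted in skeletal muscle was not tested. Over all 16146 genes tested, edgeR called 32.3%. The smallest adjusted p among those that rose were those of Ampd3, an AMP deaminase (2.91 ± 0.30 SE, adjusted p = 0.000212), and Copg2. Among those that fell they were those of Asb4 (fell by 1.95 on the log2 scale, SE 0.21, adjusted p = 0.000249), a substrate adaptor of ubiquitin ligases, and Snrpn. The median log2 fold change of the list was 0.13, against 0.02 over all genes tested. The count of 19 became 11 without innervated library 1, 12 without innervated library 3, 12 without denervated WT library 2 and 15 without the 2 libraries that stood apart.

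The IGF axis was also split. It comprises the growth factors, their receptors and the binding proteins that hold them outside cells. Of 17 genes tested, 5 rose, 4 fell and 8 did not pass, where edgeR called 32.3% of all genes tested. Igfbp5 rose from 742 ± 92.6 to 1850 ± 194 CPM (SD, n = 3; 1.32 ± 0.15 SE on the log2 scale, edgeR adjusted p = 0.000304), and Igfbp2 rose from 0.225 to 1.45 CPM (2.68 ± 0.34 SE, adjusted p = 0.000494). Irs1, which relays the receptor signal, fell by 2.17 on the log2 scale (SE 0.26, adjusted p = 0.000339), and Igf2bp3 fell by 1.42 (SE 0.39, adjusted p = 0.0179) at around 1 CPM or less.

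Igf2r, the receptor that clears IGF2 and is itself imprinted, was at 89.8, 115 and 97.4 CPM in innervated and at 177, 217 and 196 CPM in denervated WT muscle. The groups were well separated, and Igf2r rose by 0.97 ± 0.13 (SE) on the log2 scale (edgeR adjusted p = 0.000513). Igf2bp2, an RNA-binding protein named for its binding of Igf2 mRNA, rose too (1.47 ± 0.30 SE, adjusted p = 0.00435). Igf1 (22.2 ± 7.92 against 20.5 ± 0.772 CPM; 0.12 ± 0.44 SE, adjusted p = 0.864) and Igf1r (0.19 ± 0.13 SE, adjusted p = 0.292) did not pass the test.

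Of 14 factors that set or read imprints, none rose and 3 fell, where edgeR called 32.3% of all genes tested. Dnmt3a, the methyltransferase that establishes imprints in germ cells, fell by 1.34 on the log2 scale (SE 0.15, edgeR adjusted p = 0.000262). Tet3 fell by 0.55 (SE 0.14, adjusted p = 0.0143) and Ctcf, which binds the H19 control region, by 0.32 (SE 0.10, adjusted p = 0.0374). None of 3 reported muscle targets of miR-675 was called by edgeR or had an unadjusted p under 0.05; the smallest p was that of Smad1 (0.21 ± 0.13 SE, adjusted p = 0.248). All 15 denervation genes, among them acetylcholine receptor subunits, Myog and Hdac4, rose; this list was made of genes known for that response.

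Cell type markers also differed between the groups, where edgeR called 32.3% of all genes tested. Of 10 skeletal muscle fibre markers 4 fell, with summed levels of 114679 to 145365 CPM in innervated and 75882 to 87726 CPM in denervated WT muscle. Of 10 macrophage markers 9 rose, with summed levels of 109 to 350 CPM in innervated and 426 to 866 CPM in denervated WT muscle. Of 9 endothelial markers 7 fell (970 to 1084 against 528 to 707 CPM), of 7 smooth muscle and pericyte markers 6 fell (1062 to 1355 against 609 to 729 CPM), and of 9 Schwann cell markers 4 fell (138 to 219 against 37.8 to 56.5 CPM). Among 10 satellite cell markers 2 rose and 2 fell, and among 12 fibroblast and fibro-adipogenic markers 1 rose and 1 fell. Among 8 adipocyte markers, 1 rose (Car3) and 4 fell, with summed levels of 4268 to 5440 CPM in innervated and 8425 to 9458 CPM in denervated WT muscle. No marker on these lists was at 0 in a whole group, and in bulk tissue fewer cells of a type cannot be told apart from less RNA per cell. Their part in the levels of the 10 genes was not tested.

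Among the genes whose levels followed H19 most closely across the 9 libraries of the count table were Tubb6 (Pearson r of log2(CPM + 1) 0.995), Chrna1 (0.995), Chrng (0.994) and Ttc9 (0.994), out of 8635 genes averaging 8 CPM or more. Tubb6 is a tubulin, and Chrna1 and Chrng are acetylcholine receptor subunits. Among the most opposite were Ccdc50 (-0.998), Pds5b (-0.996), Dlg1 (-0.992) and Tnks2 (-0.992). The 9 points share their groups and their libraries, so these values describe the contrast of innervated with denervated muscle and the place of innervated library 2 between them.

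Innervated library 2 was the highest of its group for H19 and for Tubb6, Chrna1, Chrng and Ttc9: Chrna1, for example, was at 8.03, 108 and 8.51 CPM in innervated libraries 1 to 3. Peg3 had an r with H19 of 0.95. Over the 8 denervated libraries of the second table the same r was -0.01 for Tubb6, -0.24 for Chrna1, -0.80 for Chrng and -0.12 for Ttc9, and it was -0.43 for Peg3. Among the members, Ndn had an r with H19 of 0.59 in the count table and 0.90 in the second table, and Cdkn1c had -0.82 and 0.70. H19 itself spanned a narrow range in the second table.

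In muscle labelled PAX4 KO no member passed the test against denervated WT muscle, and H19 was at the WT level. This comparison asks whether the deletion alters the denervated state, and it uses the same denervated WT libraries as the description of denervation. H19 was at 3084, 3001 and 4085 CPM in the libraries labelled PAX4 KO, each within the range of denervated WT muscle (2918 to 4383 CPM). The log2 fold change was -0.02 ± 0.53 (SE; edgeR adjusted p = 0.990). Peg3 was at 152, 251 and 205 CPM, against 200, 261 and 222 CPM in WT (-0.17 ± 0.26 SE, adjusted p = 0.803).

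For 3 members every library labelled PAX4 KO was above every denervated WT library, as for 9.69% of all genes tested, but none of the 3 passed the test. Meg3 was at 14.4, 26.4 and 16.9 CPM, against 14.2, 9.37 and 10.7 CPM in WT. The lowest KO library was level with the highest WT library, and the log2 fold change was 0.75 ± 0.23 (SE; edgeR adjusted p = 0.299). Grb10 was at 72.7, 106 and 78.8 CPM, against 57.7, 45.0 and 58.3 CPM (0.68 ± 0.20 SE, adjusted p = 0.292). Mest was at 7.81, 13.6 and 6.26 CPM, against 6.21, 3.61 and 4.06 CPM (0.99 ± 0.30 SE, adjusted p = 0.292).

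With edgeR 0 of the 10 members were called, where 0.0186% of all genes tested were (3 genes), and 3 had an unadjusted p under 0.05, where 12.9% of all genes did. DESeq2 and limma-voom called 0 members, and the authors' deposited table called 0 of the 9 listed there, Dlk1 without an adjusted p, where it called 1.05% of its genes. With no filter on low counts edgeR called Meg3 (adjusted p = 0.0210), Grb10 (0.0213) and Mest (0.0210), and 456 genes in all.

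The remaining members overlapped between KO and WT. Plagl1 was at 3.44, 4.29 and 1.74 CPM (log2 fold change 0.66 ± 0.38 SE, edgeR adjusted p = 0.477), Igf2 at 1.55, 2.26 and 1.96 CPM (0.50 ± 0.33 SE, adjusted p = 0.536) and Ndn at 9.36, 12.1 and 9.97 CPM (0.24 ± 0.16 SE, adjusted p = 0.522). Cdkn1c was at 7.02, 16.6 and 8.14 CPM (0.16 ± 0.30 SE, adjusted p = 0.846) and Dlk1 at 0.169, 0.582 and 0.611 CPM (-0.14 ± 0.48 SE, adjusted p = 0.927). The median over the 10 members was 0.37, against 0.01 over all genes tested.

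KO library 2 held the highest value of all 9 libraries for 6 of the 10 members: Igf2, Meg3, Mest, Grb10, Plagl1 and Ndn. The same library had the highest summed level of 12 fibroblast and fibro-adipogenic markers (6656 CPM, against 3057 and 3361 CPM in the other KO libraries and 2123 to 2607 CPM in denervated WT) and of 10 macrophage markers (1396 CPM, against 769 and 978 CPM). Igf1 was at 109 CPM there and at 32.6 and 30.4 CPM in KO libraries 1 and 3 (log2 fold change 1.37 ± 0.44 SE, edgeR adjusted p = 0.301). No marker of these lists was at 0, and their part in the levels of the members was not tested.

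None of the 44 other imprinted genes was called by edgeR in this comparison, and 7 had an unadjusted p under 0.05, where 12.9% of all genes did. The smallest p was that of Cobl, at 67.8 ± 10.6 CPM in WT and 45.9 ± 2.98 CPM in KO (-0.56 ± 0.14 SE on the log2 scale, edgeR adjusted p = 0.264). Of the 17 IGF axis genes 0 were called and 5 had an unadjusted p under 0.05, with the smallest for Pappa, a protease of IGF binding proteins (1.16 ± 0.37 SE, adjusted p = 0.300). Igf2r (0.06 ± 0.12 SE, adjusted p = 0.856), Igf1r (0.24 ± 0.13 SE, adjusted p = 0.447) and Igf2bp2 (0.19 ± 0.28 SE, adjusted p = 0.796) differed by little beyond their errors.

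The second table sets muscle labelled NRF1 KD or double KD against WT con muscle, all denervated. NRF1, also called alpha-PAL, is a transcription factor known for genes of mitochondrial respiration. Both comparisons share the 2 WT con libraries, so the values are given side by side. In them Meg3 was higher in both kinds of knockdown muscle, Grb10 and Plagl1 passed the test in the double KD, and H19 and Peg3 stayed near the WT con level. Values are normalised counts, and log2 fold changes are on the log2(normalised count + 1) scale.

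Meg3 was at 523 and 521 in WT con libraries 2 and 3, at 971, 778 and 1268 in the NRF1 KD libraries and at 1013, 1024 and 941 in the double KD libraries. All 6 knockdown libraries lay above both WT con libraries, whose values were nearly equal. Meg3 rose by 0.92 ± 0.17 (SE) in NRF1 KD (limma adjusted p = 0.00963) and by 0.92 ± 0.17 in the double KD (adjusted p = 0.0201), about 1.9-fold in each. The call was lost without WT con library 2 (adjusted p = 0.0566 and 0.115), and in the double KD also without its library 2 (0.0758), while the difference was 0.73 to 1.09 in NRF1 KD and 0.90 to 0.96 in the double KD with each library left out.

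Grb10 was at 1364 and 1188 in WT con, 1753, 1623 and 1649 in NRF1 KD and 1734, 1941 and 2296 in double KD muscle. Every knockdown library was above both WT con libraries. The log2 fold change was 0.40 ± 0.13 (SE) in NRF1 KD, where it did not pass the test (limma adjusted p = 0.0686), and 0.63 ± 0.13 in the double KD, where it did (adjusted p = 0.0249). Without WT con library 2 or 3, or double KD library 2, the latter adjusted p was 0.0910, 0.0862 and 0.0801, and with only the groups compared it was 0.0709. In NRF1 KD Grb10 was called with only the groups compared (adjusted p = 0.0468).

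Plagl1 was at 20.7 and 54.3 in WT con, 67.2, 53.7 and 65.2 in NRF1 KD and 86.8, 115 and 112 in double KD muscle. The double KD libraries were above all others, while WT con library 3 lay among the NRF1 KD libraries. Plagl1 rose in the double KD (1.60 ± 0.37 SE, limma adjusted p = 0.0393) and did not pass in NRF1 KD (0.86 ± 0.37 SE, adjusted p = 0.160). The WT con libraries decided this size: without library 2 the double KD difference was 0.92 (adjusted p = 0.244) and without library 3 it was 2.28 (adjusted p = 0.0108). Leaving out double KD library 2 or 3 also ended the call (adjusted p = 0.131 and 0.0760), and in NRF1 KD Plagl1 was called without WT con library 3 (1.53, adjusted p = 0.0252). In the double KD the call also ended with only the groups compared (adjusted p = 0.0961) and with edgeR on the recovered reads (0.0570).

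Mest was at 78.4 and 110 in WT con, 205, 157 and 289 in NRF1 KD and 281, 165 and 108 in double KD muscle. NRF1 KD libraries lay above WT con, while double KD library 3 lay with it. Neither difference passed the test with limma (1.17 ± 0.38 SE, adjusted p = 0.0711; 0.88 ± 0.38 SE, adjusted p = 0.209). In NRF1 KD Mest was called with only the groups compared (adjusted p = 0.0417) and in the authors' deposited table (0.0132).

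H19 was at 153486 and 190338 in WT con, 173965, 173119 and 168028 in NRF1 KD and 191626, 188507 and 191493 in double KD muscle. The WT con libraries were further apart than the NRF1 KD or the double KD libraries were among themselves. The log2 fold changes were 0.01 ± 0.18 (SE; limma adjusted p = 0.989) and 0.16 ± 0.18 (adjusted p = 0.664). Peg3 was at 8916 and 7443 in WT con, 7422, 6547 and 6908 in NRF1 KD and 6033, 6522 and 8466 in double KD muscle (-0.23 ± 0.15 SE, adjusted p = 0.337; -0.23 ± 0.15 SE, adjusted p = 0.395).

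Cdkn1c was at 431 and 585 in WT con, 422, 501 and 403 in NRF1 KD and 726, 542 and 477 in double KD muscle (log2 fold changes -0.19 and 0.19, each ± 0.20 SE). Ndn was at 237 and 399, then 254, 323 and 273, and 386, 332 and 375 (-0.12 and 0.24, each ± 0.21 SE). Dlk1 was listed at 4.35 and 17.5, then 15.4, 6.26 and 14.2, and 30.8, 18.3 and 11.96 (0.29 and 1.01, each ± 0.65 SE); with each library left out these were -0.60 to 1.19 and 0.11 to 1.90. None of these passed the limma test, and each knockdown group overlapped WT con for each gene.

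**Figure D3:**
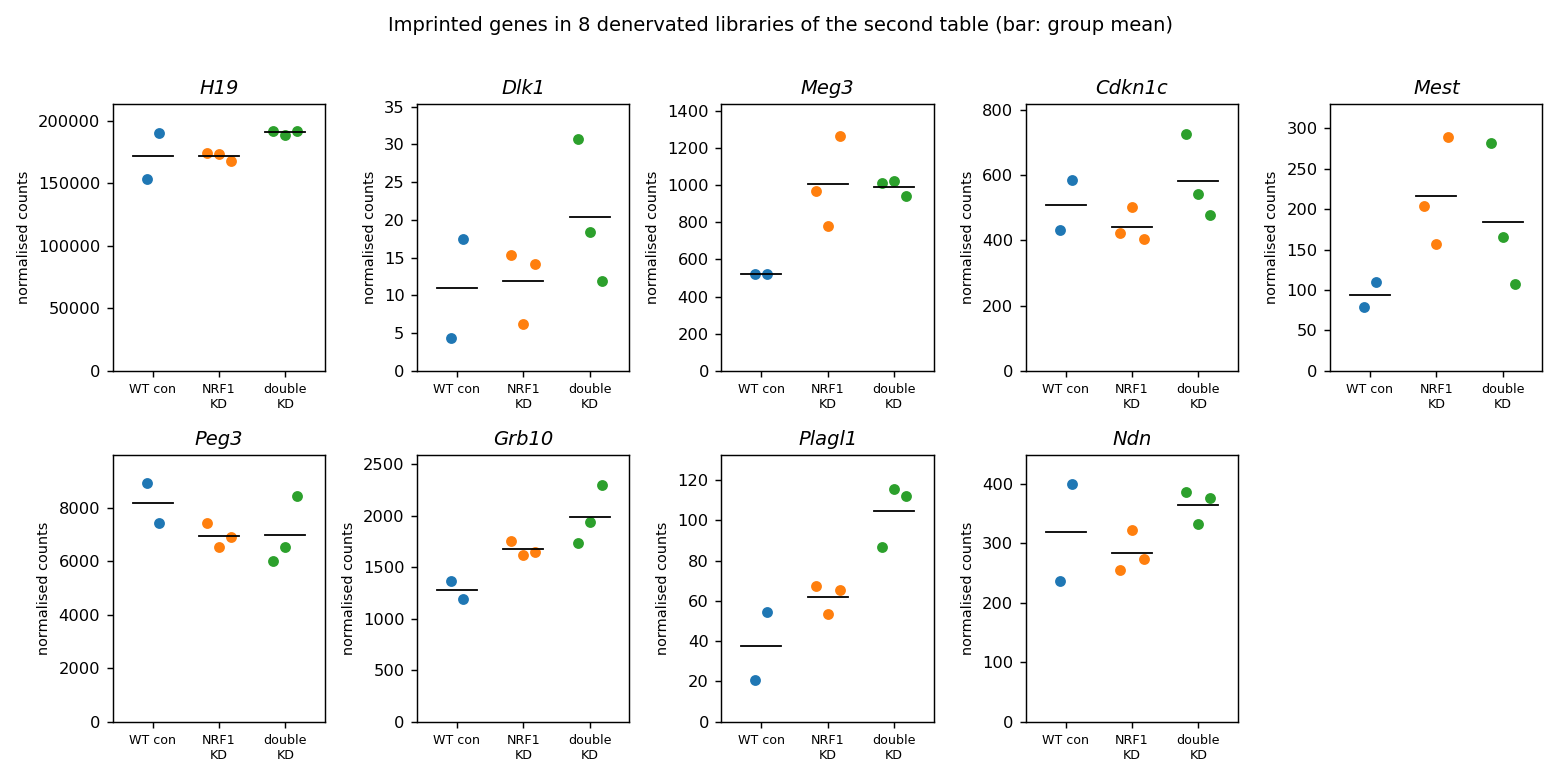
Normalised counts (y axis, from 0, a scale of its own for each gene) of the 9 imprinted genes found in the second table, in 2 WT con, 3 NRF1 KD and 3 double KD libraries, all denervated; each point is a library and each bar the mean of its group. Meg3 lies above both WT con libraries in all 6 knockdown libraries, at 778 to 1268 against 521 and 523, while H19 stays between 153486 and 191626 throughout.

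In NRF1 KD, limma called 1 of the 9 members (Meg3) where it called 11.3% of all 15624 genes, and in the double KD it called 3 of 9, all higher, where it called 4.08% of all genes, 2.39% in that direction. The median log2 fold change of the 9 was 0.29 in NRF1 KD and 0.63 in the double KD, against 0.00 and 0.02 over all genes. The authors' deposited table, from DESeq2, called Meg3 (adjusted p = 2.77e-05), Mest (0.0132) and Grb10 (0.0488) in NRF1 KD, where it called 15.1% of its genes. For the double KD the authors' deposited table called Meg3 (0.000104), Grb10 (0.000636) and Plagl1 (0.00459), where it called 8.53% of its genes.

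Between double KD and NRF1 KD muscle, limma called 0 of the 9 members, where it called 0.134% of all genes. Plagl1 alone had an unadjusted p under 0.05 (0.74 ± 0.33 SE on the log2 scale, adjusted p = 0.430), where 11.2% of all genes did, and edgeR on the recovered reads also called 0. For Meg3 the difference was 0.01 ± 0.15 (SE; adjusted p = 0.987), for Grb10 0.24 ± 0.11 (adjusted p = 0.456) and for H19 0.15 ± 0.16 (adjusted p = 0.767). A p that misses the threshold does not show that the 2 kinds of knockdown act alike.

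**Figure D4:**
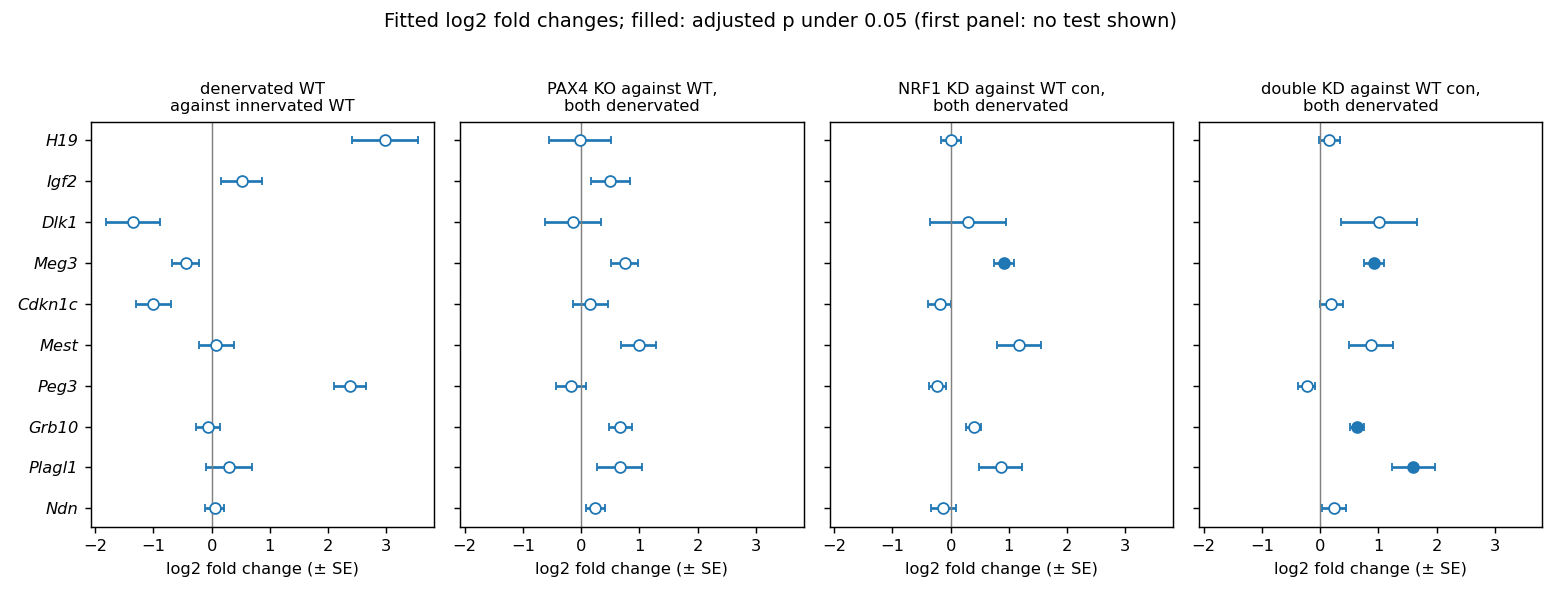
Fitted log2 fold change (x axis, bars are SE) of each imprinted gene (y axis) in 4 comparisons; filled points had an adjusted p under 0.05, and no test is shown in the first panel, from which the genes were chosen. H19 and Peg3 stand far to the right of 0 only in the first panel (2.98 and 2.37), and Meg3 is filled in both knockdown panels (0.92 in each).

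The promoters of the 3 members called in the double KD are shown because these genes rose together there. Each line gives the 250 bases before an annotated start (RefSeq, GRCm38.p6), with capitals for the patterns found in it: Meg3 at chr12:109540746-109540995 (plus strand), Grb10 at chr11:12027972-12028221 (minus strand) and Plagl1 at chr10:13090582-13090831 (plus strand).
Meg3 promoter: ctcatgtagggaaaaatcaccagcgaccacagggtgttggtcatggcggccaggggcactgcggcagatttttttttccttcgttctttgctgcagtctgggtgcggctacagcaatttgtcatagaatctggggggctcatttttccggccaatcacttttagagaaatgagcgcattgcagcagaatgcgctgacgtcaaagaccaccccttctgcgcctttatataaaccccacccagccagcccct
Grb10 promoter: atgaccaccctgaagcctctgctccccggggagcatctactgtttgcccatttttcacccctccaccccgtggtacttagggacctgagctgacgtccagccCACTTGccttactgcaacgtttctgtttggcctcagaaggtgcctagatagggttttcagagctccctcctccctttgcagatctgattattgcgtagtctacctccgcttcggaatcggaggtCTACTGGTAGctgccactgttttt
Plagl1 promoter: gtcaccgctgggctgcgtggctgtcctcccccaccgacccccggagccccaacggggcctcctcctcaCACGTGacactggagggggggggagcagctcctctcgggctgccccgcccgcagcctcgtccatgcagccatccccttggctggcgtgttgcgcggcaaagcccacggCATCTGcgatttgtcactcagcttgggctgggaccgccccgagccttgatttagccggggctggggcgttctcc
The patterns searched on both strands were the alpha-PAL motif (GCGCA, any base, GCGC), the E-box CANNTG and its special case CAGCTG (bound by Myog and its relatives), and CTA, any 4 bases, TAG, a pattern looser than the MEF2 site, whose centre is made of A and T, which do not overlap in the lines printed, in windows of 300 bases that run from 250 before to 50 after a start.

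The alpha-PAL motif had no match in any of the 15 promoters of the 8 members listed in the promoter table, against 4.59% of all 32817 promoters, and no match says only that these letters are not in this window. CANNTG matched 8 of the 15, in Grb10, Igf2, Meg3, Mest and Plagl1, against 72.3% of all promoters; in Meg3 the match lies in another of its promoters, and Peg3, Dlk1 and Ndn had none. The pattern of CTA and TAG around any 4 bases matched 1 promoter, that of Grb10 printed above, at 24 bases before the start (3.69% of all promoters), and CAGCTG matched 1, of Mest (16.3%). A match is a description of the sequence and not evidence that a factor binds there.

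Of the genes tested beside Meg3 in its cluster, only Rian passed the test in both comparisons. Rian was at 187 and 215 in WT con, 334, 375 and 483 in NRF1 KD and 495, 472 and 464 in double KD muscle. All knockdown libraries were above WT con, and Rian rose in both (0.96 ± 0.17 SE, limma adjusted p = 0.00710; 1.24 ± 0.17 SE, adjusted p = 0.00597). Mirg did not pass in either (0.98 ± 0.35 SE, adjusted p = 0.102; 0.41 ± 0.35 SE, adjusted p = 0.554). Dio3, at the other end of the cluster, did not pass (0.14 ± 0.30 SE, adjusted p = 0.811; 0.53 ± 0.30 SE, adjusted p = 0.342). Zim1, next to Peg3, fell in both by 0.61 (SE 0.14, adjusted p = 0.0208) and 0.63 (SE 0.14, adjusted p = 0.0357) on the log2 scale.

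Of 38 other imprinted genes, 3 rose and 3 fell in NRF1 KD, and 2 rose and 3 fell in the double KD. Over all genes limma called 11.3% in NRF1 KD and 4.08% in the double KD. Peg10, derived from a retrotransposon, rose most surely in NRF1 KD, from 38.1 and 40.7 to 139, 201 and 207 normalised counts (2.16 ± 0.30 SE, limma adjusted p = 0.00345), and rose in the double KD too (107, 70.1 and 138; 1.34 ± 0.30 SE, adjusted p = 0.0370). Tspan32 rose in NRF1 KD (1.73 ± 0.30 SE, adjusted p = 0.00691). Zrsr1, a splicing factor gene, fell by 0.68 on the log2 scale (SE 0.11, adjusted p = 0.00637) in NRF1 KD and by 0.58 (SE 0.11, adjusted p = 0.0249) in the double KD.

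Of 16 IGF axis genes, 1 rose and 1 fell in each comparison, where limma called 11.3% and 4.08% of all genes. Igf1, the growth factor that drives muscle growth after birth, was at 369 and 416 in WT con, 854, 942 and 1046 in NRF1 KD and 903, 722 and 602 in double KD muscle. No knockdown library reached down to WT con, and Igf1 rose (1.27 ± 0.17 SE, limma adjusted p = 0.00310; 0.90 ± 0.17 SE, adjusted p = 0.0201). Igfbp5 fell by 0.62 (SE 0.18, adjusted p = 0.0480) and by 0.75 (SE 0.18, adjusted p = 0.0430) on the log2 scale. Igf2r (0.00 ± 0.11 SE, adjusted p = 0.998; -0.01 ± 0.11 SE, adjusted p = 0.974), Igf1r (0.10 and -0.07, each ± 0.16 SE) and Igf2bp2 (0.59 and 0.85, each ± 0.25 SE, adjusted p = 0.156 and 0.0823) did not pass.

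Of the 14 imprint control factors, Uhrf1 (1.51 ± 0.36 SE, limma adjusted p = 0.0235) and Tet3 (0.77 ± 0.20 SE, adjusted p = 0.0340) rose in NRF1 KD, where limma called 11.3% of all genes. In the double KD, where it called 4.08% of all genes, it called 0 of them, and 1 had an unadjusted p under 0.05. The 3 miR-675 targets gave no call in either comparison and none had an unadjusted p under 0.05.

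Markers of other cell types moved with the knockdown as well, where limma called 11.3% of all genes in NRF1 KD and 4.08% in the double KD. All 10 macrophage markers rose in NRF1 KD (summed level 18799 to 39357 against 8014 and 10592 normalised counts in WT con). In the double KD (14625 to 22833) limma called 1 of them. All 10 had a positive log2 fold change there (median 0.95), and 9 had an unadjusted p under 0.05. Of 12 fibroblast and fibro-adipogenic markers 5 rose in NRF1 KD (57568 to 78338 against 28783 and 50300) and 4 in the double KD (46900 to 92461). WT con library 2 had the lower sum of both lists. Its sums of the satellite cell, adipocyte, endothelial, Schwann cell and smooth muscle and pericyte markers were also lower, and that of the fibre markers was higher. Most of the adipocyte sum was Car3, with a mean of 187295 normalised counts in WT con, where the whole list had a mean of 196954. No marker on these lists was at 0, and their part in the levels of Meg3, Grb10, Plagl1, Rian, Peg10 and Igf1 was not tested. Of 15 denervation genes 8 fell and 2 rose in NRF1 KD, and 6 fell and 2 rose in the double KD.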

How the data were processed

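RNA from skeletal muscle went into libraries made with an mRNA kit, per the labels' protocols. The genome builds listed, per the submitters' processing notes, are mm10 and GRCm38. Not given in the sources used here: aligner, counting tool, strand setting. For 9 libraries the deposited values are raw counts. For 8 further libraries the authors deposited log2 values, recognised from the values themselves as DESeq2's variance-stabilised scale, with a signal column (the mean of counts divided by size factors), a score column (the Wald statistic) and p-values of their own DESeq2 tests. Of 23 samples in the labels, 6 had no matched column and were not analysed here. Columns were matched to groups by name; libraries of the count table are numbered in ascending order of the numbers in their column names.

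The deposited log2 values were inverted to normalised counts, whose mean differed from the deposited signal by at most 3.34e-07%, and 100% of the recovered reads were whole within 0.05. Of the second table's 15624 genes, 15598 matched a symbol.

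Counts were tested with edgeR 4.0.16 (R 4.3.3; quasi-likelihood F test, TMM, filterByExpr, 16146 genes, the 3 groups in 1 fit). All 10 members passed this filter. For the second table limma 3.58.1 was run in trend mode on log2(normalised count + 1), again with 3 groups in 1 fit. Each adjusted p is Benjamini-Hochberg over all genes, called under 0.05, from edgeR or limma as above where no other tool is given. Alternatives were DESeq2 1.42.0, limma-voom, DESeq2 size factors, no filter, a mean of at least 5 CPM or 100 normalised counts, pseudocounts of 0.1 and 5, edgeR on the recovered reads, the deposited log2 values as they stand, only the groups compared, a replicate block and each library left out. Leaving out innervated library 2 together with denervated WT library 1 was chosen after seeing the data. The scripts were tested on simulated data.

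The 10 members and all gene lists were chosen with earlier results of these data known. All members are named; of each other list, up to 2 called genes per direction by smallest adjusted p, or the gene of smallest p where none was called; Igf1, Igf1r, Igf2r, Igf2bp2 and Mir675 always. Likeness to H19 was ranked by Pearson r, 5 genes each way, of which 1 each way is not reported here. Neighbours in the clusters, Chrng, Igf2os and the third called imprint control factor were named outside this rule, after their values were seen. Promoters were in the RefSeq table for 8 members. Gene positions and exon lengths are from GENCODE release M21.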

Additional observations from a re-analysis of the deposited data

How the results depend on the processing

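Of 609 values of single members under another setting, 554 kept their direction and side of the threshold, and 27 changed direction, none of them past the threshold. These include the members' values of denervated against innervated muscle, from which the genes were chosen. The tally is therefore a description, and nothing about that contrast is read from it. For denervated against innervated muscle, 5210 genes were called, with 3509 to 5283 when each library was left out, and 19 other imprinted genes, with 11 to 16. For muscle labelled PAX4 KO, 3 genes were called with edgeR, 192 with DESeq2, 5 with limma-voom, 456 with no filter (3 of them members), 169 without innervated library 2 and denervated WT library 1, and 1 to 26 with each library left out. For NRF1 KD the 1765 genes became 550 to 1611 and the 1 member 0 to 2 with each library left out; it was 3 members with only the groups compared and 3 in the authors' deposited table. For the double KD the 638 genes became 231 with only the groups compared (1 member), 1333 in the authors' deposited table and 86 to 692 with each library left out (0 to 3 members). For the double KD against NRF1 KD, the 21 genes became 79 with only the groups compared, 1 with a pseudocount of 0.1, 1 with a mean of at least 100 normalised counts and 1 to 158 with each library left out. In the double KD, Plagl1 (adjusted p = 0.0961) and Grb10 (0.0709) were not called by limma with only the groups compared, nor was Plagl1 by edgeR on the recovered reads (0.0570); Grb10 (0.0468) and Mest (0.0417) were called in NRF1 KD with only the groups compared. The causes were not tested. Where an arm was left with 1 library, that library was assumed to vary like the other groups.

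With each library left out, denervated against innervated muscle gave -0.13 to 0.52 for Plagl1, -0.24 to 0.08 for Grb10, -0.19 to 0.22 for Mest and -0.05 to 0.20 for Ndn, described with no test. In the PAX4 KO comparison H19 was 0.0072 at a mean of at least 5 CPM and -0.18 to 0.19 with each library left out, Dlk1 was 0.15 without innervated library 2 and denervated WT library 1 and -0.45 to 0.26 with each left out, and Cdkn1c was -0.32 to 0.38. In NRF1 KD H19 was -0.0018 in the authors' deposited table and -0.15 to 0.16 with each library left out, Dlk1 was -0.60 to 1.19, Ndn -0.50 to 0.25 and Cdkn1c -0.41 to 0.0301. In the double KD Dlk1 was 0.11 to 1.90, Ndn -0.13 to 0.61 and Cdkn1c -0.0305 to 0.41. Between the double KD and NRF1 KD, edgeR on the recovered reads gave 0.0012 for Peg3 and -0.0286 for Meg3, and leaving out each library gave -0.15 to 0.10 for Peg3, -0.16 to 0.19 for Meg3 and -0.65 to 0.0374 for Mest.

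The column names of innervated and denervated WT libraries share the numbers 127, 139 and 143. The labels do not say that equal numbers mark a shared animal, so same-numbered libraries were not taken as pairs. Deviations from the group means correlated by 0.22, 0.03 and 0.24 between same-numbered libraries over 8847 genes. Every library correlated best with its own number, a hint of pairing from the data and not the design. With the number as a replicate block, 5034 genes and 18 other imprinted genes were called, and H19 differed by 3.45 on the log2 scale. In the second table same-numbered libraries correlated by -0.45 to 0.37. With a replicate block there, NRF1 KD gave 630 genes and H19 at -0.000399, the double KD gave 136 genes and 0 members (adjusted p = 0.0732 for Meg3, 0.0912 for Grb10 and 0.0962 for Plagl1, by limma), and the double KD against NRF1 KD gave 9 genes. For PAX4 KO against WT alone, no paired analysis was possible because the libraries of these 2 groups share no number.

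Depth limited Dlk1 and Igf2, with 6 to 37 and 9 to 80 counts a library. The second table had 2 WT con libraries. Innervated library 2 set much of the spread of H19.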

Other observations

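The other imprinted clusters held further differences, in genes named after their values were seen. In the Peg10 cluster, Peg10 rose with denervation from 1.89 ± 0.858 to 5.27 ± 1.85 CPM (SD, n = 3; log2 fold change 1.45 ± 0.39 SE, edgeR adjusted p = 0.0173), while its neighbour Sgce, a sarcoglycan gene, fell by 0.36 on the log2 scale (SE 0.12, adjusted p = 0.0470) and Asb4 fell from 24.8 ± 7.83 to 6.40 ± 0.532 CPM. Neither Sgce (0.29 ± 0.23 SE, limma adjusted p = 0.454) nor Asb4 (0.32 ± 0.26 SE, adjusted p = 0.452) passed the test in NRF1 KD, where Peg10 rose.

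In the Igf2r cluster, Airn, the non-coding RNA transcribed across the start of Igf2r on the opposite strand, rose with denervation from 9.19 ± 0.467 to 12.1 ± 1.18 CPM (SD, n = 3; 0.39 ± 0.12 SE, edgeR adjusted p = 0.0324), as Igf2r did. Reads of the 2 genes cannot be told apart where they overlap. In muscle labelled PAX4 KO, Airn was at 9.58 ± 0.642 CPM (-0.33 ± 0.12 SE against denervated WT, adjusted p = 0.326).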
